A study of Mus musculus with 6 samples.

Results

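Heat shock proteins and chaperones were examined in microglia through 10 genes that were chosen by name among the 55335 gene identifiers of the table, namely Hspa1a, Hspa1b, Hspa8, Hsp90aa1, Hsp90ab1, Hspb1, Hspd1, Hspe1, Dnajb1 and Hsph1. The choice was made with the difference between these same 6 libraries in view, so the values of the 10 genes are given as a description, without p-values. Primary microglia came from the brains of newborn C57BL/6 mice with the Cd177 gene and were shaken off mixed glial cultures on the 14th day. They were cultured for 24 h with neutrophils that had been taken by magnetic sorting (MACS) from spinal cord injury (SCI) lesions 3 days after injury, and were then recovered by flow sorting as cells without the neutrophil surface protein Ly6G. The neutrophils came either from Cd177 WT mice (3 libraries, the WT arm) or from Cd177 KO mice (3 libraries, the KO arm), and CD177 is a surface protein of neutrophils. All 6 libraries had met neutrophils from an injured cord, so none gives a level without them.

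Chaperones bind unfolded proteins and help them to fold, and many were first known as proteins that cells make after heat. HSP70 proteins work in cycles of ATP with J-domain partners and nucleotide exchange factors, HSP90 proteins act later on kinases and receptors with a set of co-chaperones, and the HSP60 and HSP10 proteins form a folding chamber in the mitochondrial matrix. Some family members are made all the time, whereas others are switched on by the heat shock factor HSF1, which binds repeats of a GAA unit in alternating orientation (heat shock elements). In microglia, as in other cells, a raised level of the inducible members is a well known sign of protein damage.

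Expression was read as FPKM, the number of fragments per 1000000 mapped that fell on each kilobase of a transcript, which is a level per length. The sum over all genes was 314085 to 315632 FPKM for WT libraries and 323588 to 326868 FPKM for KO libraries, and mitochondrially encoded genes held 11.1% to 11.3% and 14.3% to 14.6% of the sum. The depth was estimated from the most common low value of FPKM times kilobases, within a preset range, among genes with 1 transcript. Taken as 1 fragment, this value gave 15.6 to 19.2 times 1000000 fragments per library. Only 25.9% to 27% of low values were whole multiples of it within a tolerance of 0.05, so the floors below are approximate. The labelled cell type was checked with 16 microglia markers, of which 6 averaged 1 FPKM or more. Tyrobp was at 135.1 to 207.3 FPKM, while 3 others (C1qa, Sall1, Fcrls) had no signal in any library and P2ry12 and Aif1 did not exceed 0.148 and 0.282 FPKM. The summed level of the list was 318.1 to 338 FPKM in the WT arm and 397.8 to 431.7 FPKM in the KO arm. None of 14 neutrophil markers reached a mean of 1 FPKM and 7 of them, Ly6g included, were at 0 in all libraries, with a summed level of 1.82 to 2.07 FPKM and 0.791 to 1.19 FPKM. Of 15 astrocyte and oligodendrocyte markers only Cnp reached a mean of 1 FPKM, 9 were at 0 in all libraries, and the list summed to 2.92 to 3.33 FPKM and 4.12 to 4.59 FPKM. In such bulk RNA, fewer cells of a type and less RNA per cell cannot be told apart.

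Next, the sequences at the start of the member genes were read, because the classical heat shock genes are known for elements built from GAA units. The sequences are those of RefSeq (GRCm38.p6), from 250 bases before to 50 bases after each start site, and windows were found for 7 of the 10 members. Hspa8, Hsp90aa1 and Hsp90ab1 had no window. Pairs of units were searched as GAANNTTC and TTCNNGAA, each of which reads the same on both strands, and triplets as GAANNTTCNNGAA and TTCNNGAANNTTC, each the reverse complement of the other. Matches may overlap. Over 32851 start site windows, 7.86% and 8.52% held the pairs, 15.1% held either pair, 0.31% and 0.32% held the triplets, and 0.603% held either triplet. A match describes letters in a window and is not a measured binding site.

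Hspd1 and Hspe1 are neighbours that point away from each other on chromosome 1, and the window of the second Hspd1 start overlapped that of Hspe1 by 285 bases. Both therefore held the same run of 3 overlapping pairs (2 triplets), in 18 bases, which lie 89 to 72 bases before the Hspe1 start and 144 to 127 bases before the Hspd1 start. They are shown first because the levels of both genes, given further on, were higher in the KO arm. The order of display thus followed the values, and a link between units and levels was not tested. The position is chr1:55088053-55088082, and capitals mark the run of units.
Hspe1, plus strand: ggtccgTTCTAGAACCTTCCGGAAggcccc
Hspd1, minus strand: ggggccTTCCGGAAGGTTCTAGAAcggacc
The window of the first Hspd1 start, which lies inside the Hspe1 gene, held no match.

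Hsph1 held 1 triplet, of 13 bases, 15 to 27 bases after its second start (chr5:149636280-149636309, minus strand), again in capitals. A separate pair, not shown, lies 54 bases before the second start and 33 bases before the first.
Hsph1, minus strand: tgctgcagaTTCTGGAAAGTTCtcctcagt
Neither of the 2 Dnajb1 windows held a pair. The stress-inducible Hspa1a and Hspb1 are shown with the whole 250 bases before the start, since both had pairs there and both were at the limit of detection. The Hspa1a stretch is chr17:34972157-34972406 on the minus strand and has 1 pair, 104 bases before the start. The Hspb1 stretch is chr5:135887669-135887918 on the plus strand and has pairs at 117 and 97 bases before the start. Capitals mark the pairs.
Hspa1a, minus strand: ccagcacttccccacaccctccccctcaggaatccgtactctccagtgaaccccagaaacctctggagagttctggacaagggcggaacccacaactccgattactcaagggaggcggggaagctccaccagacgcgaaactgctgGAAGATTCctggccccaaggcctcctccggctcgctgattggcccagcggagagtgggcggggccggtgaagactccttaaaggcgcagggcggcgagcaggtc
Hspb1, plus strand: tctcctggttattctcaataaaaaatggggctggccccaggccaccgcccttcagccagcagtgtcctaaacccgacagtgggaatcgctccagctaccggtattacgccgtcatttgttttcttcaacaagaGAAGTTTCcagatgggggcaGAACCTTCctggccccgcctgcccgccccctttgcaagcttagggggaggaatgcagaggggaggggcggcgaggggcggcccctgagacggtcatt
The matching stretch of Hspa1b (chr17:34959239-34959488, minus strand) differed from that of Hspa1a at 3 of 250 bases (98.8% identical) and had the same pair at the same distance.

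The stress-inducible HSP70 genes were close to undetected in both arms. Hspa1a (ENSMUSG00000091971, chromosome 17, 34969190 to 34972156, GRCm38) was listed at 0, 0.0215 and 0.00667 FPKM in the WT arm and at 0.0530, 0 and 0.0238 FPKM in the KO arm. Hspa1b (ENSMUSG00000090877, chromosome 17, 34956436 to 34959238) was listed at 0, 0.0229 and 0.0743 FPKM and at 0.0785, 0.0268 and 0.0186 FPKM. A floor of 3 fragments was worth 0.0526 to 0.0650 FPKM for Hspa1a and 0.0556 to 0.0688 FPKM for Hspa1b, so 1 library of each arm was above the floor for Hspa1b and the arms overlapped for both genes. These 2 genes are near-identical copies, with 52.7% of the 75-base words of Hspa1a also present in Hspa1b, and how the authors' counting divided fragments between them is not known. One Hspa1a value, in WT replicate 3, was lower than the 0.0175 to 0.0217 FPKM that 1 whole fragment was worth.

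Hspb1 (ENSMUSG00000004951), the small heat shock protein HSP25 of the mouse, was in the same range. Its values were 0.0689, 0.202 and 0.0933 FPKM in the WT arm and 0, 0.198 and 0.0331 FPKM in the KO arm, against a floor of 0.168 to 0.207 FPKM. Only KO replicate 2 lay above the floor of its own library, and the arms overlapped. None of these 3 inducible genes had a mean of 1 FPKM, the minimum for the fit across genes, and no fold is given for them, since a difference was not detectable at this depth.

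The other 7 members were well expressed, and their levels kept 1 order in all 6 libraries. Over the 6 libraries the mean was 1162 FPKM for Hsp90ab1, 625.7 for Hspd1, 460.7 for Hsp90aa1, 353.3 for Hspa8, 127.3 for Hspe1, 22.04 for Hsph1 and 10.5 for Dnajb1. Among the 11395 genes that averaged 1 FPKM or more, Hsp90ab1 was at the 99.7th percentile of level, Hspe1 at the 97.3rd and Dnajb1 at the 59.6th. Hsp90aa1 and Hspa8, a factor of 1.3 apart, were the only neighbours in this order whose ranges over the libraries overlapped. The 10 members together held 0.819% to 0.85% of all FPKM in the WT libraries and 0.868% to 0.909% in the KO libraries.

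**Figure D1:**
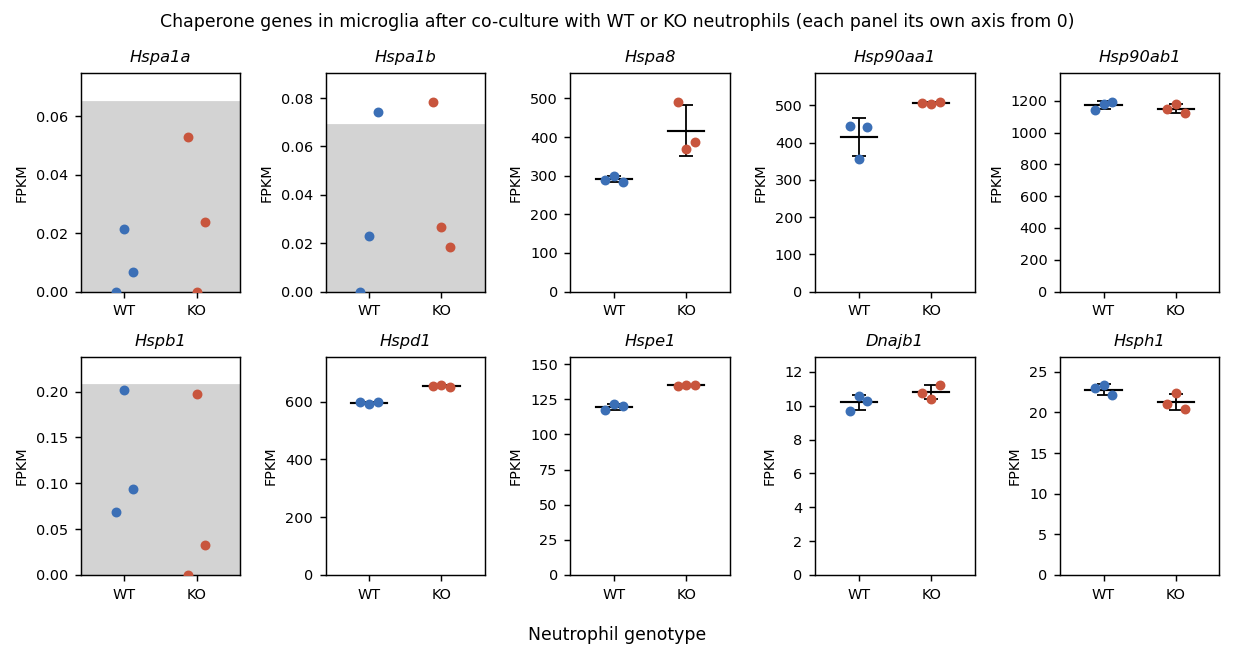
FPKM of the 10 chaperone genes in each library (points) by neutrophil genotype, 3 libraries per arm, each panel with its own axis from 0. Black lines are the mean and SD of an arm, left out for the 3 genes near the detection limit, where grey marks up to 3 fragments in the shallowest library. The KO points lie above the WT points for Hspa8, Hsp90aa1, Hspd1 and Hspe1.

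Hspa8 (ENSMUSG00000015656, chromosome 9, 40800984 to 40810087) encodes HSC70, the HSP70 protein that cells make all the time. Its values were 288.4, 298.9 and 283.7 FPKM in the WT arm and 491.5, 369.2 and 387.9 FPKM in the KO arm. Every KO library was above every WT library. The means were 290.3 ± 7.76 FPKM and 416.2 ± 65.9 FPKM (SD, n = 3 each), a ratio of 1.43 and a log2 change of 0.51 (SE 0.104) on the log2(FPKM + 1) scale. The spread differed between the arms, with a coefficient of variation of 2.67% in the WT arm and 15.8% in the KO arm, against a median of 3.19% over the 4765 genes with at least 10 FPKM in the KO arm. KO replicate 1 was 1.3 times the mean of the other KO libraries. Without it the KO mean was 378.5 FPKM, the ratio 1.3 and the log2 change 0.38 (SE 0.0341).

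Hsph1 (ENSMUSG00000029657), an HSP110 protein that exchanges the nucleotide of HSP70, did not follow Hspa8. It had 22.9, 23.4 and 22.1 FPKM in the WT arm and 21.02, 22.4 and 20.5 FPKM in the KO arm. The arms overlapped, and the log2 change was -0.10 (SE 0.0417). The ratio of Hsph1 to Hspa4, another HSP110 gene, was 0.223, 0.223 and 0.212 in the WT libraries and 0.183, 0.191 and 0.174 in the KO libraries, so this ratio within a library was free of overlap between the arms. Dnajb1 (ENSMUSG00000005483), the J-domain partner that brings substrates to HSP70, had 9.72, 10.6 and 10.3 FPKM in the WT arm and 10.8, 10.4 and 11.2 FPKM in the KO arm. Its arms overlapped as well, with a log2 change of 0.08 (SE 0.0465).

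Both cytosolic HSP90 genes were examined together, since one is known as the more inducible and the other as the constant form. Hsp90aa1 (ENSMUSG00000021270, chromosome 12, 110690605 to 110702728), the inducible form, had 444.4, 356.6 and 442.8 FPKM in the WT arm and 507.2, 503.7 and 509.6 FPKM in the KO arm. The KO libraries were nearly alike and all were above the WT libraries, of which WT replicate 2 was the lowest. The means were 414.6 ± 50.2 FPKM and 506.8 ± 2.93 FPKM (SD, n = 3 each), a ratio of 1.22 and a log2 change of 0.30 (SE 0.0846). Without WT replicate 2, which was 0.804 times the mean of the other WT libraries, the ratio was 1.14 and the log2 change 0.19 (SE 0.0173).

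Hsp90ab1 (ENSMUSG00000023944), the constant form and the most abundant member, had 1145, 1181 and 1194 FPKM in the WT arm and 1149, 1182 and 1121 FPKM in the KO arm. These values overlapped, with a log2 change of -0.03 (SE 0.0262). The ratio of Hsp90aa1 to Hsp90ab1 within a library was 0.388, 0.302 and 0.371 in the WT arm and 0.442, 0.426 and 0.455 in the KO arm. This ratio did not overlap between the arms, and its log2 difference was 0.33. Its lowest value, 0.302, was that of WT replicate 2, the library that was also low for Hsp90aa1.

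Next, the mitochondrial chaperonin was examined. Hspd1 (ENSMUSG00000025980, chromosome 1, 55077835 to 55088243) encodes HSP60, the barrel of the folding chamber, and had 599, 592.9 and 597.6 FPKM in the WT arm and 655.5, 657.5 and 651.7 FPKM in the KO arm. Beside that of Hspa8 the difference was small, but the libraries of each arm lay close together and the arms were well apart. The means were 596.5 ± 3.21 FPKM and 654.9 ± 2.91 FPKM (SD, n = 3 each), a ratio of 1.1 and a log2 change of 0.13 (SE 0.0141). The change was 0.08 on a scale with equal sums per library (the TPM scale) and 0.26 after quantile normalization. Hspe1 (ENSMUSG00000073676, chromosome 1, 55088132 to 55091307) encodes HSP10, the lid of the chamber, and had 117.1, 121.6 and 120.2 FPKM in the WT arm and 134.8, 135.1 and 135.1 FPKM in the KO arm. Its KO libraries were also all above its WT libraries, with a ratio of 1.13 and a log2 change of 0.17 (SE 0.0206).

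These neighbours had similar differences. Hsph1, which also holds a triplet, had a log2 change of -0.10, and Hspa8 and Hsp90aa1 had no window. A link between the GAA units and the levels was not tested. The ratio of Hspd1 to Hspe1 within a library was 5.11, 4.88 and 4.97 in the WT arm and 4.86, 4.87 and 4.83 in the KO arm. The difference of this ratio was -0.04 on the log2 scale, although the arms did not overlap. The exons of the 2 genes overlap on opposite strands by 112 bases (4.24% of the exon bases of Hspd1 and 7.6% of those of Hspe1), and whether the counting used the strand is not stated. The KO arm also held the larger share of mitochondrially encoded RNA, given above. Its part in these differences was not tested.

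In the fit across all 11395 genes, genes with an adjusted p under 0.05 are termed called, which held for 43.3%, 24.5% higher and 18.8% lower in the KO arm. Of the 7 members that entered the fit, 4 were called, all higher (Hspa8, Hsp90aa1, Hspd1 and Hspe1), and 3 were not. The same 4 were free of overlap between the arms, as were 55.8% of all genes. Since the members were chosen with this contrast known, nothing is read from these counts. The median log2 change of the 7 was 0.13 against 0.02 over all genes, and none of them differed by more than 2-fold. Hsp90aa1 was not called without KO replicate 1, KO replicate 2 or KO replicate 3 (log2 changes of 0.30, 0.30 and 0.29), without the filter on low values, or on the TPM scale (0.25). Hsph1 was called lower on the TPM scale (-0.14) and without KO replicate 2 (-0.13), and under both settings 3 members were called higher and 1 lower.

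**Figure D2:**
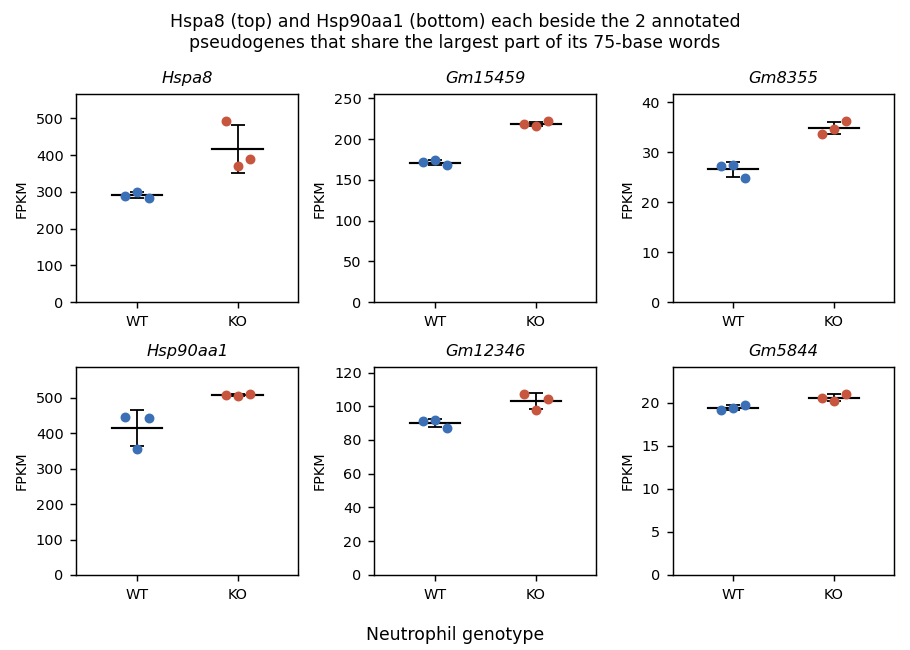
FPKM in each library (points), with the mean and SD of each arm (black, n = 3), for Hspa8 and Hsp90aa1, each beside the 2 annotated pseudogenes with the largest share of its 75-base words, on axes from 0. Gm15459 (171.4, 173.9 and 167.7 against 218.7, 216.6 and 221.7 FPKM) lacks the high KO point and Gm12346 (91.2, 91.6 and 87.1 against 107.1, 97.6 and 104.1 FPKM) lacks the low WT point of its parent.

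The most abundant members have processed pseudogenes, intronless copies elsewhere in the genome, and fragments that match both may be given to either. Of the 75-base words of Hspa8, 67.2% occurred in no other gene, and the share was 57.2% for Hsp90aa1, 70.4% for Hspd1, 88.1% for Hspe1 and 99.5% for Hsp90ab1. Dnajb1 and Hsph1 shared none with another gene (100% unique). For Hspa1a, Hspa1b and Hspb1 it was 45.8%, 44.2% and 53.6%. The values of all these genes other than Hsp90ab1, Dnajb1 and Hsph1 are uncertain to that extent. Gm15459 on chromosome 5, which holds 30.2% of the words of Hspa8, was listed at 171 ± 3.09 FPKM in the WT arm and 219 ± 2.57 FPKM in the KO arm (SD, n = 3 each), which is 0.36 (SE 0.0209) on the log2 scale. Gm8355 on chromosome 10, with 16.4% of the words, was listed at 26.6 ± 1.45 FPKM and 34.9 ± 1.27 FPKM (SD, n = 3 each), a change of 0.38 (SE 0.0478). Both copies were thus higher in the KO arm in all libraries, and neither repeated the high value of Hspa8 in KO replicate 1.

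Gm12346 on chromosome 11 holds 36.2% of the words of Hsp90aa1 and had a log2 change of 0.19 (SE 0.0401), with all KO libraries above the WT libraries. Its lowest WT library was WT replicate 3, not WT replicate 2. Gm5844, with 22.1% of the words of Hsp90aa1, had a smaller change of 0.08 (SE 0.0296), without overlap between the arms, and Gm5511, with 2.41%, had -0.03 (SE 0.0749), with overlap. Gm6210, with 9.63% of the words of Hspa8, had 0.19 (SE 0.107) with overlap, and Hspd1-ps3, with 28.6% of the words of Hspd1, had 0.06 (SE 0.0265) without overlap. Gm47750, with 2.24% of the words of Hspd1, had 0.06 (SE 0.197) with overlap. Among copies annotated as protein-coding, AC117239.2, with 11.9% of the words of Hspe1, was at 10.4, 15.7 and 15.4 FPKM in the WT arm and 11.9, 17.1 and 15.1 FPKM in the KO arm, with overlap. Hspa1l, an HSP70 gene with 5.88% of the words of Hspa1a and 4.58% of those of Hspa1b, was named here after its values were seen. It was at 4.28, 4.35 and 3.97 FPKM in the WT arm and 3.39, 3.72 and 3.39 FPKM in the KO arm, lower without overlap, with a log2 change of -0.21 (SE 0.0572). When the FPKM of 7 pseudogenes was added to Hspa8, the copies made up 34.6% to 41.6% of the sum, and the sum went from 495.1 ± 12.8 FPKM to 678.4 ± 64.3 FPKM (SD, n = 3 each), or by 0.45 (SE 0.0652) on the log2 scale. For Hsp90aa1 with 3 pseudogenes the change was 0.27 (SE 0.0653), and for Hspd1 with 2 it was 0.13 (SE 0.0136). These sums add levels per length of genes with different lengths, so they show direction and not a level.

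To place the members in the wider network, 133 other chaperone genes in 9 groups were read from the same fit. Of 113 that were tested, 32 were higher and 22 lower in the KO arm (47.8% called, against 43.3% of all genes), with a median log2 change of 0.03. On the TPM scale the split was 18 higher and 29 lower, so the direction of the small changes depends on the scale, as it does for all genes (2789 higher and 2141 lower, or 2183 and 2659 on the TPM scale). Group counts below stand beside 24.5% higher and 18.8% lower over all genes, and no group was tested as a set. The share called was 25% to 80% across groups of 3 to 21 tested genes. J-domain proteins (42.1%) and endoplasmic reticulum chaperones (42.9%) were near the share of all genes. Only Hspb7 differed by more than 2-fold. The libraries are not labelled as separate cultures, so the p-values from here on measure the spread between these libraries, which may be technical.

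**Figure D3:**
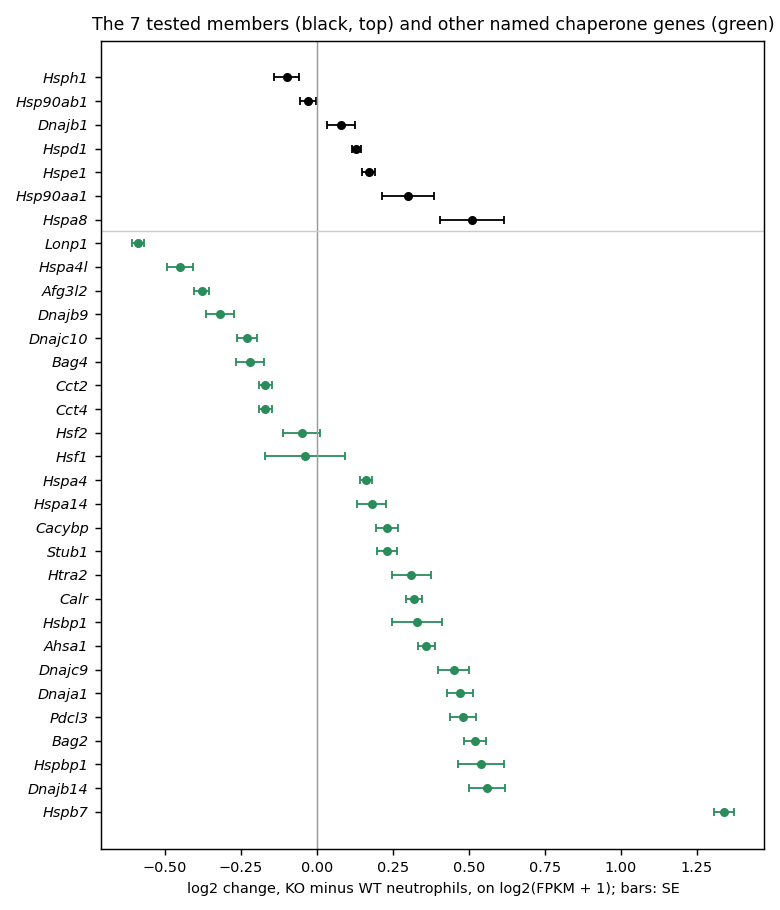
Log2 change (KO minus WT neutrophils, points) with its SE (bars) on the log2(FPKM + 1) scale for the 7 tested members (black, a description) and the other named chaperone genes (green). Hspb7 at 1.34 stands apart, and Lonp1 at -0.59 is the lowest of the genes drawn.

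Small heat shock proteins hold unfolded proteins in solution. Hspb7, a member known from heart and muscle, had 35.7, 33.4 and 34.7 FPKM in the WT arm and 89.3, 86.4 and 91.0 FPKM in the KO arm. It rose 2.57-fold, or by 1.34 on the log2 scale (SE 0.0335, limma adjusted p = 1.2e-06). It was the only one of 3 tested genes in this group of 9 to be called, and 5 of the 9 were at 0 in all libraries.

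Partners of HSP70 had calls in both directions, as all genes did. Hspa4, the HSP110 gene used in the ratio above, rose from 103.9 ± 0.972 FPKM to 116.5 ± 1.52 FPKM (SD, n = 3 each, limma adjusted p = 0.001), while its relative Hspa4l fell from 7.22 ± 0.149 FPKM to 5.02 ± 0.160 FPKM (SD, n = 3 each, limma adjusted p = 0.000334). Hspa14, which acts at the ribosome, was higher by 0.18 (limma adjusted p = 0.0221), a call lost on the TPM scale (0.14) and without WT replicate 1 (0.18), WT replicate 3 (0.16), KO replicate 1 (0.19) or KO replicate 2 (0.15). Of the exon bases of Hspa14, 7.91% overlap the protein-coding Gm45902 on the same strand. Among 5 tested genes of this group of 8, 2 were higher and 2 lower (1 and 2 on the TPM scale). The J-domain proteins, which bring substrates to HSP70, had 3 higher and 5 lower of 19 tested (3 and 6 on the TPM scale). Dnaja1, a cytosolic partner, rose from 8.79 ± 0.401 FPKM to 12.6 ± 0.216 FPKM (SD, n = 3 each, limma adjusted p = 0.00027), and 7.05% of its exon bases overlap Smu1 on the opposite strand. Dnajb14, which sits in the endoplasmic reticulum (ER) membrane, rose 1.8-fold (limma adjusted p = 0.000532), and Dnajc9, which also binds histones, rose 1.4-fold (limma adjusted p = 0.000774).

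Nucleotide exchange factors release the substrate from HSP70, and 3 of 7 were higher and 1 lower (2 and 1 on the TPM scale). Bag2, which also restrains the ubiquitin ligase CHIP, rose from 10.8 ± 0.220 FPKM to 16.0 ± 0.525 FPKM (SD, n = 3 each, limma adjusted p = 0.000102). Hspbp1 rose from 11.7 ± 0.914 FPKM to 17.4 ± 1.39 FPKM (SD, n = 3 each, limma adjusted p = 0.00194). Bag4 fell by 0.22 on the log2 scale (SE 0.0462, limma adjusted p = 0.0104), with 14.8% of its exon bases under an opposite-strand transcript.

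The HSP90 co-chaperones had 10 higher and 3 lower of 21 tested (61.9% called, against 43.3% of all genes). The median log2 change of this group was 0.11. On the TPM scale 4 were higher and 3 lower, with a median of 0.06. Ahsa1, which speeds up the ATPase of HSP90, had 33.7, 34.0 and 34.2 FPKM in the WT arm and 43.6, 45.3 and 42.8 FPKM in the KO arm. It rose 1.29-fold (limma adjusted p = 0.000157). Cacybp, which binds a ubiquitin ligase complex, rose 1.18-fold (limma adjusted p = 0.00286). Stub1, which encodes CHIP, also rose 1.18-fold (limma adjusted p = 0.00244), but 42.3% of its exon bases overlap Jmjd8 on the opposite strand. The changes of this group were small, from -0.15 to 0.36 on the log2 scale.

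The CCT ring folds actin and tubulin, and prefoldin passes them to it. Both were read as 1 group in which 5 were higher and 3 lower of 15 tested. Of 8 tested CCT subunits, 1 was higher and 3 lower, with a median of -0.07, whereas of 7 prefoldin subunits and related factors 4 were higher and none lower, with a median of 0.12. On the TPM scale 4 CCT subunits were lower and none higher, and 2 of the prefoldin genes were higher. Cct2 fell from 212.3 ± 4.30 FPKM to 188.2 ± 1.33 FPKM (SD, n = 3 each, limma adjusted p = 0.000997) and Cct4 from 112.9 ± 2.07 FPKM to 100.3 ± 0.436 FPKM (SD, n = 3 each, limma adjusted p = 0.00109). Pdcl3, a phosducin-like factor that works with CCT, rose 1.42-fold (limma adjusted p = 0.000278). The difference between CCT and prefoldin was not tested.

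In mitochondria, the site of Hspd1 and Hspe1, other chaperones and proteases had 3 higher and 3 lower of 18 tested. Lonp1, the protease that clears damaged proteins of the matrix, had 110.8, 111.2 and 108.3 FPKM in the WT arm and 73.5, 72.3 and 72.6 FPKM in the KO arm. It fell by 0.59 on the log2 scale (SE 0.0205, limma adjusted p = 4.92e-06). Afg3l2, a protease of the inner membrane, fell by 0.38 (SE 0.0260, limma adjusted p = 8.48e-05). Htra2, a protease of the space between the membranes, was higher by 0.31 (SE 0.0644, limma adjusted p = 0.00965), and 25.6% and 18.2% of its exon bases overlap Aup1 and Loxl3 on the opposite strand. Lonp1 and Afg3l2 thus went the other way from the chaperonin genes, and Htra2 the same way. On the TPM scale the group had 2 higher and 6 lower.

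ER chaperones had 4 higher and 5 lower of 21 tested, or 2 and 7 on the TPM scale. Calr, which encodes the lectin chaperone calreticulin, rose from 152.3 ± 2.95 FPKM to 190.6 ± 4.44 FPKM (SD, n = 3 each, limma adjusted p = 0.000157). Dnajb9, a J-domain protein that works with BiP, fell by 0.32 (SE 0.0453, limma adjusted p = 0.00196), and Dnajc10, which reduces disulfide bonds, fell by 0.23 (SE 0.0335, limma adjusted p = 0.00236).

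**Figure D4:**
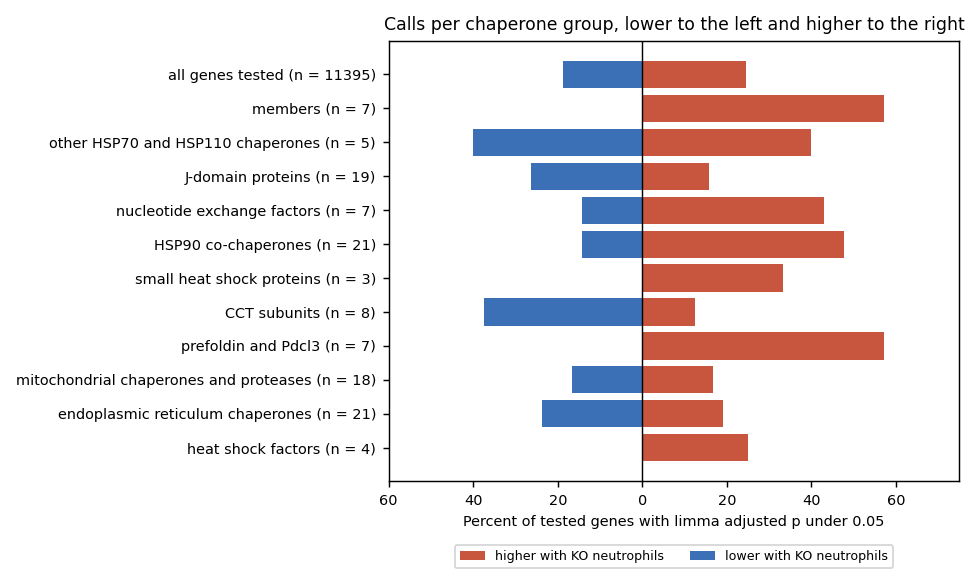
Percent of tested genes in each chaperone group with a limma adjusted p under 0.05, higher with KO neutrophils to the right (red) and lower to the left (blue), beside all genes tested. Group sizes are in brackets, and members are a description. HSP90 co-chaperones have 10 higher and 3 lower of 21, which becomes 4 and 3 on the TPM scale. Of all 11395 genes, 2789 are higher and 2141 lower, or 2183 and 2659 on the TPM scale.

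Finally, the regulators were examined. Hsf1, the factor that switches on the inducible genes, had 4.34, 4.18 and 5.32 FPKM in the WT arm and 4.77, 5.09 and 3.56 FPKM in the KO arm. The arms overlapped, and the difference was -0.04 on the log2 scale (SE 0.131, limma adjusted p = 0.814). Hsf2 had means of 2.94 ± 0.146 FPKM and 2.80 ± 0.173 FPKM (SD, n = 3 each, limma adjusted p = 0.504), again with overlap. Hsbp1, a small protein that binds HSF1, had 33.8, 32.5 and 41.0 FPKM in the WT arm and 44.3, 45.3 and 45.5 FPKM in the KO arm. It was called higher with a change of 0.33 (SE 0.0831, limma adjusted p = 0.0197), and this call was lost without WT replicate 1 (0.30), WT replicate 2 (0.27), KO replicate 2 (0.33) or KO replicate 3 (0.32), and without the filter on low values (0.33). Of the 4 tested genes among 6 in this group, only Hsbp1 was called.

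Because tissue handling and sorting can induce heat shock genes together with immediate early genes, 14 of the latter were read beside the members. Of 11 tested, none was higher and 10 were lower in the KO arm, with a median log2 change of -0.89, and their summed level was 664.8 to 696.5 FPKM in the WT arm and 284.1 to 288.9 FPKM in the KO arm. Fos was at 14.9, 13.0 and 17.3 FPKM in the WT arm and at 9.47, 9.12 and 9.71 FPKM in the KO arm. The rest of the list averaged less than 1 FPKM. Fosb had means of 0.071 FPKM in the WT arm and 0.108 FPKM in the KO arm, and Egr2 had 0.564 and 0.901 FPKM. Egr1 had signal only in KO replicate 1 (0.0140 FPKM). Whether this list measures handling in these libraries was not tested, nor was the part of handling in the results on chaperones.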

How the data were processed

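Microglia RNA-seq was available for 6 libraries, 3 per neutrophil genotype, grouped by their titles. One table of FPKM values, made by the authors and deposited unpooled, covered 55335 identifiers. The submitters' processing notes name fastp 0.17.1, HISAT2 2.1.0, DESeq2 1.18.1 and R 3.4.3. The program behind the FPKM values, the genome build, the annotation and the use of strand are not given in the sources used here. The labels and the methods name different library kits and sequencers. Symbols and positions came from GENCODE M21 (GRCm38, 99.67% of identifiers found), which may not be the authors' annotation.

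Genes averaging 1 FPKM or more (11395) were fitted with limma 3.58.1 in R 4.3.3 on log2(FPKM + 1), KO minus WT, with a variance trend, no covariates, two-sided, and Benjamini-Hochberg adjustment over all genes tested. The authors' own test was DESeq2 on counts. Here only 25.9% to 27% of low values were whole fragments within a tolerance of 0.05, so no count test was run. Fold changes on this scale understate those of low genes. Floors of 3 fragments cover counting error only. The procedure was tested on simulated data.

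The members and lists were chosen with earlier results of these data known. Named were all members, Hsf1, Hsf2, Hsbp1 and, of each other group, up to 3 called genes with the smallest p. Copies were sought by shared 75-base words for the members, not for the other chaperones. Replicate numbers did not pair the libraries. Alternatives were a pseudocount of 0.1, no filter, a mean of at least 5 FPKM, 4 other scales, no variance trend, a replicate block, leaving out each library and, chosen after the data were seen, adding pseudogenes to their parents.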

Additional observations from a re-analysis of the deposited data

How the results depend on the processing

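With all genes, 4930 were called. The alternatives with all libraries gave 3763 (mean of at least 5 FPKM) to 4931 (median centring), and leaving out 1 library gave 4081 to 4229. Of the other chaperones 54 were called, and the alternatives gave 43 (no filter) to 54, or 39 to 45 without 1 library. Of the members 4 were called, 3 without the filter, 3 to 4 without 1 library (3 higher and 1 lower without KO replicate 2, where Hsph1 was gained and Hsp90aa1 lost), and 4 with pseudogenes added to their parents, an alternative chosen after the data were seen. For 32 named genes, 480 refits kept direction and side of the threshold in 461, lost the call in 15, gained it in 2 and reversed in 2. Apart from the members, Hsf1, Hsf2 and Hsbp1, these genes were named for the smallest p in the same fit. Their count therefore does not measure how stable the calls of chaperone genes are in general. The 15 losses belong to Hsp90aa1, Hspa14 and Hsbp1, and the 2 gains to Hsph1. Hsf1, which was not called, turned from -0.04 to 0.05 without WT replicate 3 and to 0.08 without KO replicate 3, in a range of -0.13 to 0.08 without 1 library. The cause was not tested. The correlations of same-numbered libraries were -0.0751, -0.0524 and -0.00518, so the numbers pair nothing. A replicate block left 4212 genes, 44 other chaperones (26 higher and 18 lower) and 4 members called. The edgeR and DESeq2 alternatives were not run, since whole reads could not be recovered. Depth limits Hspa1a, Hspa1b and Hspb1, and shared sequence limits these 3 genes, Hspa8, Hsp90aa1, Hspd1 and Hspe1.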
